A study of Rattus norvegicus with 10 samples.

Results

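The insulin-like growth factor (IGF) family was followed in rat mammary tumours through 10 genes: the ligands Igf1 and Igf2, the receptors Igf1r and Igf2r, and the binding proteins Igfbp2, Igfbp3, Igfbp4, Igfbp5, Igfbp6 and Igfbp7. A gene was taken as a member if at least 1 probe set of the array carried its symbol and no other in the platform annotation. All 10 genes were found, among 14217 genes named this way, with 23 of the 31042 probe sets that were not controls. Of these, 20 probe sets, at least 1 for each gene, passed the filter that left out the dimmest 40% of probe sets (mean signal under 5.14 on the log2 scale). The 3 that did not pass all belonged to Igf2.

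The tumours were induced in female Sprague-Dawley rats by 1 oral dose of 100 mg/kg of the carcinogen 7,12-dimethylbenz(a)anthracene (DMBA), and every animal in both groups had received it. Basal samples (n = 5) were Trucut needle biopsies of 0.7 cm by 2.5 mm, taken at 12 weeks of age from tumours of 2 cm3 before any treatment. Final samples (n = 5) came from the same tumours at sacrifice, at 19 weeks of age, in the 7th week after the biopsy, when the rats had been given hydroxytyrosol, a phenol of olive oil, for 6 weeks (0.5 mg/kg per gavage, 5 days weekly). The tumours are named 66D2, 67D3, 45D3, 49I1 and 51I1, and wherever 5 values follow each other below they stand in that order. Untreated tumours of the later age were not analysed here, so the treatment, the age, tumour growth and the way of sampling (a needle piece against what the labels call the total tumour, although the design text names needle sampling at both times) cannot be told apart.

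IGF-I and IGF-II are secreted peptides that act on the IGF-I receptor, a tyrosine kinase that drives growth and survival. The IGF-II receptor, which is also the cation-independent mannose 6-phosphate receptor, carries IGF-II to lysosomes and does not signal as a kinase. The IGF-binding proteins hold the ligands in the extracellular space and can limit or prolong their action. In the mammary gland, IGF-I comes largely from the stroma, and IGFBP-5 is known for its increase during involution.

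No family member passed the test over all probe sets. Igfbp6, Igfbp7, Igfbp4, Igfbp2, Igf1, Igfbp5, Igf2r and Igf2 had a higher mean in final samples, and Igfbp3 and Igf1r a lower one. Of the 20 family probe sets, 0 had an adjusted p under 0.05 (limma with the tumour as a block, Benjamini-Hochberg adjustment; the smallest was 0.593), as for all 18625 probe sets tested (0, or 0%). At an unadjusted p under 0.05 there was 1 family probe set, a higher one, against 1494 of all probe sets (8.02%; 3.43% higher and 4.59% lower), and the methods' t-test gave 1394 in all. On every family probe set tested the groups overlapped, and none was higher or lower in 5 of 5 tumours; of all probe sets, 3.96% were higher and 4.75% lower in 5 of 5, and in 0.172% every final array lay above every basal one and in 1.07% below. The number that were higher in at least 4 tumours was 12 of 20 for the family, against 21.3% of all probe sets, and 2 of 20 were lower in at least 4, against 25.2%. Many of these probe sets share a gene, so they are not independent counts. Over the 10 genes, each by its brightest probe set, the median log2 difference was 0.27, against -0.01 over the 10839 genes tested.

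**Figure D1:**
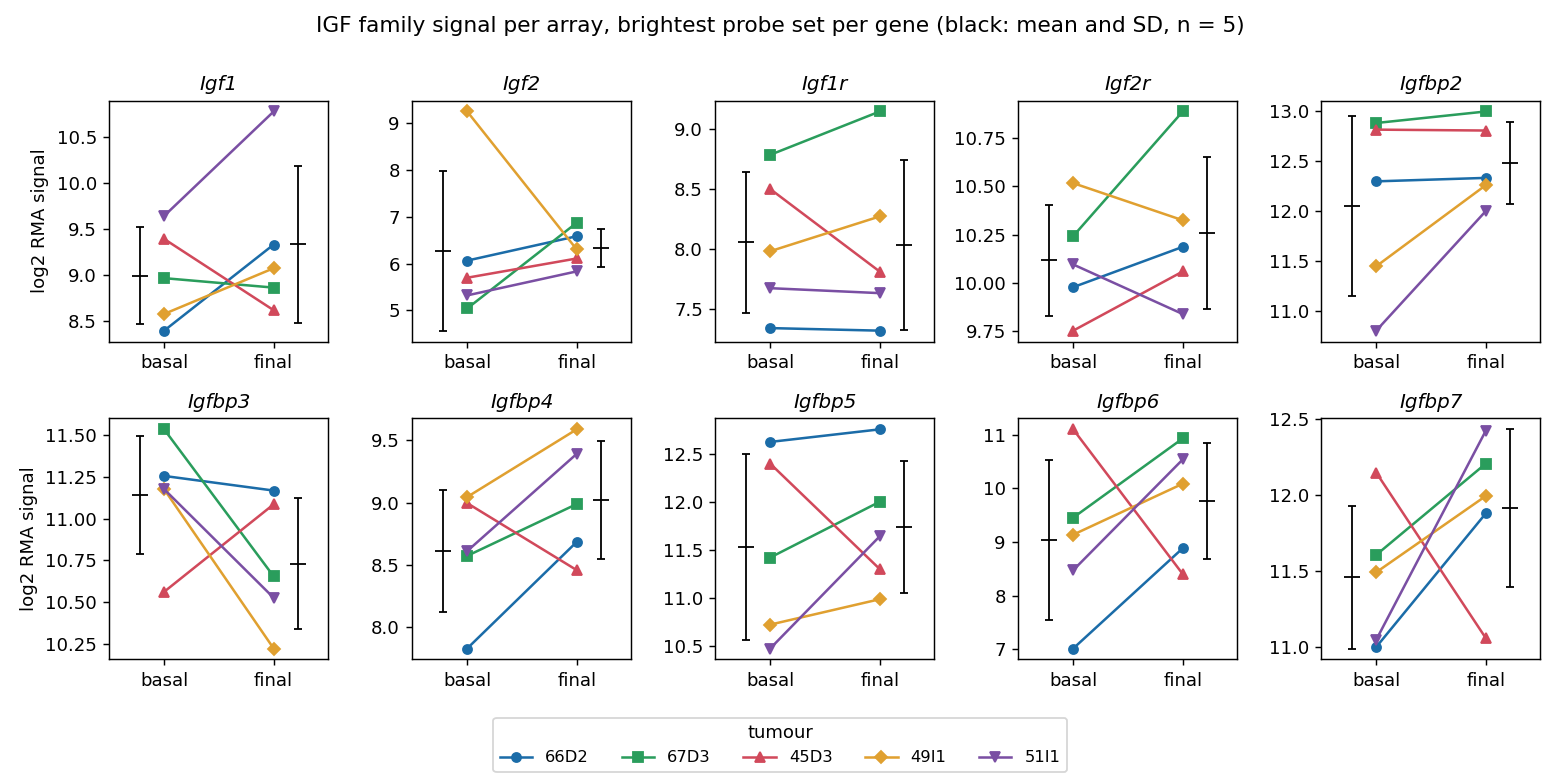
Log2 signal of each family gene in the basal and final array of each tumour (lines join the arrays of 1 tumour; the brightest probe set per gene; black marks are the mean and SD of 5 arrays; each panel has its own axis). In Igfbp6, Igfbp7 and Igfbp4 the line of 45D3 runs downward and the other 4 run upward, and in Igf2 the basal array of 49I1 lies at 9.24 while the other 4 basal arrays lie between 5.04 and 6.06.

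Tumour 45D3 stood apart from the others, in this family and over all probe sets. Its arrays are described first because most results below depend on it. In 45D3, 7 of the 10 genes and 14 of the 20 family probe sets were lower in the final array, whereas 44.5% of all probe sets were lower there. On 11 of 20 family probe sets the final array was higher in the other 4 tumours and lower in 45D3, a pattern shown by 7.95% of all probe sets. The reverse pattern, lower in the other 4 and higher in 45D3, was shown by 11.5% of all probe sets. Over all tested probe sets, the deviations of the 2 arrays of 45D3 from their group means correlated by -0.16. In the other tumours that correlation was 0.17 to 0.72. The basal array of 45D3 also had the largest gap between the 3′ and 5′ probe sets of hexokinase (2.36 on the log2 scale), a measure that grows when RNA is degraded. The basal array of 67D3 came next with 2.03, the other 3 basal arrays had 0.97, 1.19 and 1.29, and the final arrays 0.89 to 1.10. By the GAPDH probe sets the gap was again largest in the basal array of 45D3 (0.48), while 67D3 had 0.27 in its basal and 0.28 in its final array. The remaining arrays had 0.03 to 0.17. The part of these gaps in the results was not tested. The difference of every member gene, and of the pathway genes described at most length, is given with and without 45D3; since that tumour was singled out with the values known, the values without it are no independent support. Without 45D3, 0 of 20 family probe sets and 0% of all probe sets passed the adjusted threshold, 3383 of all probe sets had an unadjusted p under 0.05, and at that level 10 family probe sets were higher, against 8.47% of all, and 2 lower, against 9.7%. In all 4 of these tumours 11 family probe sets were higher, against 11.9% of all, and 2 lower, against 16.2%.

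On their brightest probe sets, the binding proteins Igfbp2, Igfbp4, Igfbp5, Igfbp6 and Igfbp7 were each higher in the same 4 tumours and lower in 45D3 (Igfbp2 by -0.01 there). Igfbp3 was the other way in each tumour, lower in 4 and higher in 45D3, as were 11.5% of all probe sets. Of all pairs of members, Igfbp4, Igfbp6 and Igfbp7 had the 3 highest correlations. The 250 bases upstream of the start of each gene are shown for those 3 and for Igfbp3 (RefSeq, build GRCr8), so that the most correlated genes can be set beside the opposite one; capitals mark the TATA box letters TATAAA and the GC box letters GGGCGG on either strand.
Igfbp4 (chr10:84491221-84491470, plus strand): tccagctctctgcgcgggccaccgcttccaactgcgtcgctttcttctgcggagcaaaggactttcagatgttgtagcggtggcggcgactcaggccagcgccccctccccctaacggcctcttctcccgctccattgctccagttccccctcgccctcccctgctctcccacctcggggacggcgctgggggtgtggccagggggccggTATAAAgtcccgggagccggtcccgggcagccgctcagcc
Igfbp6 (chr7:135154669-135154918, plus strand): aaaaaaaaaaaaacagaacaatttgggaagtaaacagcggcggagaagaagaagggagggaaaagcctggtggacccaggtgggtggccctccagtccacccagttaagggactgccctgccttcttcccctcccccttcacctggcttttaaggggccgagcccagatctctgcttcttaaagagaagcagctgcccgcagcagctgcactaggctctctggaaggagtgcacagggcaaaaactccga
Igfbp7 (chr14:31091486-31091735, plus strand): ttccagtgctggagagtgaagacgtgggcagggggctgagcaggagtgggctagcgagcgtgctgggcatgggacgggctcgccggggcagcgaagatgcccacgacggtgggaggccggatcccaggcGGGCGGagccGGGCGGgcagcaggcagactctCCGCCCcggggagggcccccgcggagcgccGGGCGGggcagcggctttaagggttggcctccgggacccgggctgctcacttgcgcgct
Igfbp3 (chr14:86277945-86278194, minus strand): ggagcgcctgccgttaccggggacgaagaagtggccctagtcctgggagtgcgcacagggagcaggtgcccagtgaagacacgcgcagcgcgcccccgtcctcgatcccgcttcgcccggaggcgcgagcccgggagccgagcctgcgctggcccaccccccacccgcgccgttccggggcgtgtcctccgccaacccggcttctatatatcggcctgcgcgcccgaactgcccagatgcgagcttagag
Of the 10 members, all with a RefSeq window, only Igfbp4 held TATAAA, which 12.9% of the 33465 windows of this length hold, and Igfbp7 held 4 matches of GGGCGG, which occurs in 30.5% of them. Windows of Igf2r, Igf1r, Igf2 (1 of its 2 windows) and Igfbp2 held the GC box as well, and those of Igfbp3, Igfbp4, Igfbp5, Igfbp6 and Igf1 did not. The E-box letters CACGTG, in 5.59% of windows, lay in those of Igf2r, Igf1r and Igfbp2. The motifs do not overlap one another in the windows printed, and no 1 of the 3 was in the windows of Igfbp4, Igfbp6 and Igfbp7 alike.

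Igfbp6, a binding protein that prefers IGF-II, had log2 signals in basal arrays of 7.01, 9.45, 11.10, 9.14 and 8.47. In final arrays they were 8.88, 10.93, 8.40, 10.08 and 10.54 in the same order. The groups overlapped, with and without 45D3, which had the highest basal and the lowest final value. Basal arrays averaged 9.04 ± 1.49 (SD, n = 5) and final arrays 9.77 ± 1.08 (SD, n = 5), a log2 difference of 0.73 (SE 0.69; limma adjusted p = 0.799), higher in 4 of 5 tumours. Without 45D3 the difference was 1.59 (SE 0.20; limma adjusted p = 0.0970), or 3.01-fold, and higher in 4 of 4, whereas it was 0.40 without 51I1 and 0.45 without 66D2. The other Igfbp6 probe set gave 0.95 (SE 0.73) over all tumours and 1.85 (SE 0.23; limma adjusted p = 0.0970) without 45D3. Those were the smallest adjusted p-values in the family, while the smallest over all probe sets without 45D3 was 0.0596.

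Igfbp7, which is secreted into the vessel wall and matrix and binds IGFs with low affinity, had basal signals of 10.9995, 11.61, 12.15, 11.49 and 11.05. Its final signals were 11.88, 12.21, 11.06, 11.99 and 12.42. As for Igfbp6, 45D3 was the highest basal and the lowest final array. The log2 difference was 0.45 (SE 0.33; limma adjusted p = 0.741) over 5 tumours and 0.84 (SE 0.16; limma adjusted p = 0.136) without 45D3, a 1.79-fold higher signal, but 0.22 without 51I1.

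Igfbp4, a binding protein that withholds IGF-I until the protease PAPP-A cuts it, had basal signals of 7.83, 8.57, 8.996, 9.05 and 8.61. Its final signals were 8.68, 8.99, 8.46, 9.59 and 9.39. Here 66D2 was lowest before treatment and 45D3 lowest after it. The log2 difference was 0.41 (SE 0.21; limma adjusted p = 0.659), and 0.65 (SE 0.11; limma adjusted p = 0.132) without 45D3, with tumours from 0.42 to 0.85.

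Igfbp3, the main carrier of IGFs in the blood, ran opposite to these. Its basal signals were 11.26, 11.53, 10.56, 11.18 and 11.18, and its final signals 11.17, 10.65, 11.09, 10.22 and 10.52. Its final value was lower than the basal one in every tumour but 45D3, whose basal signal was the lowest of the 5. The log2 difference was -0.41 (SE 0.23; limma adjusted p = 0.673), and -0.64 (SE 0.17; limma adjusted p = 0.172) without 45D3. The other Igfbp3 probe set gave -0.61 (SE 0.30) and, without 45D3, -0.93 (SE 0.20; limma adjusted p = 0.148).

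Across the 10 arrays, the Pearson correlation of log2 signal was 0.90 between Igfbp6 and Igfbp7, 0.80 between Igfbp6 and Igfbp4 and 0.77 between Igfbp7 and Igfbp4. Igfbp3 had -0.77 with Igfbp4, -0.69 with Igfbp7 and -0.69 with Igfbp6. These are descriptions: the 10 arrays come from 5 tumours, and values of 1 array share its RNA. By the same measure, the genes most like Igfbp6 were Eeig2 (0.99), Btbd1 (0.98) and Plac9 (0.96), those most like Igfbp7 were Kcne4, Rhoj and Jam2 (each 0.96), and those most like Igfbp4 were Susd2, Spon1 and Smoc2 (each 0.94). Smoc2, a secreted matrix protein, had a mean of 10.06 in basal and 10.81 in final arrays. Genes most like Igfbp3 were Smim26 (0.91), Tsg101 (0.90) and Hagh (0.90).

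**Figure D2:**
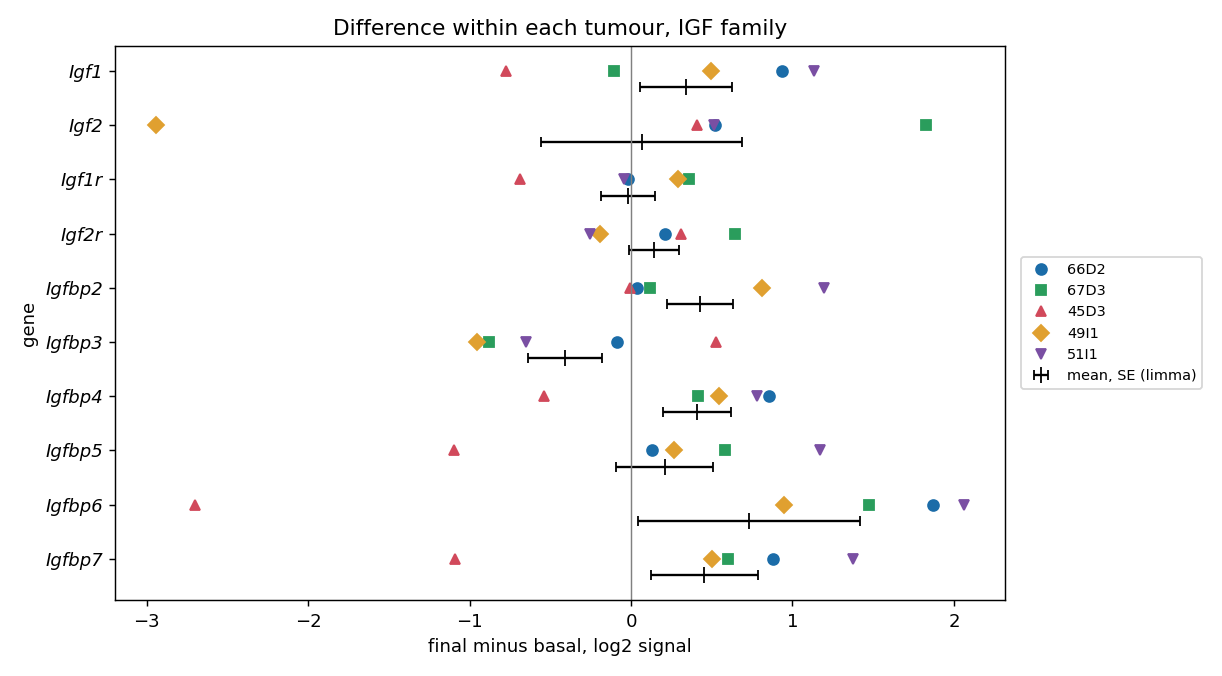
Difference in log2 signal, final minus basal, within each tumour for the 10 genes (symbols are tumours; the black bar below them is the mean with the SE of the limma fit, n = 5 tumours). The point of 45D3 lies at -2.70 in Igfbp6, -1.10 in Igfbp5 and -1.09 in Igfbp7, and that of 49I1 at -2.94 in Igf2.

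Fibroblast markers were higher in the same 4 tumours as Igfbp4, Igfbp6 and Igfbp7. In 45D3 their median was lower, and Postn alone was higher there, by 0.10. All 12 fibroblast and collagen markers, among them Dcn and Lum, 2 small proteoglycans of fibroblasts, were measured above the dim cutoff, and their median log2 difference was 1.13 in 66D2, 1.07 in 67D3, 0.67 in 49I1 and 0.65 in 51I1, but -0.96 in 45D3. Their summed signal ranged from 14.24 to 15.38 on the log2 scale in basal and from 14.08 to 16.18 in final arrays. For 8 endothelial markers (of 9 listed; Cdh5 was not among those tested) the median difference was 1.16, 0.62, -1.04, -0.09 and 1.52, and the summed signal ranged from 9.80 to 11.16 in basal and from 10.26 to 11.73 in final arrays. In 45D3, where Igfbp6, Igfbp7 and Igfbp4 were lower after treatment, the medians of both lists were lower too. So were the adipocyte, macrophage and myoepithelial medians given below. In 49I1 the endothelial median was close to 0 while the 3 genes were higher. The part of these lists in the result was not tested. In bulk tumour RNA, fewer cells of a type and less RNA per cell cannot be told apart.

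The labelled tissue was checked on luminal epithelial markers, of which 8 of 8 lay above the cutoff. Epcam averaged 12.85 ± 0.13 (basal; SD, n = 5) and 12.86 ± 0.20 (final; SD, n = 5), and the median difference of this list lay between -0.38 and 0.44 in every tumour. The summed luminal signal ranged from 14.76 to 15.30 in basal and from 14.84 to 15.26 in final arrays. Skeletal muscle markers (7 of 9 tested, without Myh4 and Mylpf) had median differences of 4.37, 6.58, 0.19, 2.64 and 0.19, with a summed signal from 10.50 to 11.45 in basal and from 10.79 to 15.09 in final arrays. Myh1, which differed by 0.11, carried most of the basal sum; without it, a choice made after its values were seen, the sum ranged from 7.88 to 9.83 in basal and from 7.83 to 15.02 in final arrays. Adipocyte markers (7 of 10 tested, without Plin1, Cidec and Lep) had medians of 0.76, 2.13, -0.65, -0.01 and 2.78 in the same order of tumours, and a summed signal from 9.64 to 10.98 in basal and from 10.42 to 13.34 in final arrays. The 9 macrophage markers had 0.89, -1.002, -0.59, -0.53 and 1.12, and a summed signal from 11.87 to 12.94 in basal and from 11.92 to 13.92 in final arrays. For the 8 myoepithelial and smooth muscle markers the medians were -0.17, -0.76, -0.14, 0.38 and 0.04. The parts of these lists in the family's values were not tested.

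**Figure D3:**
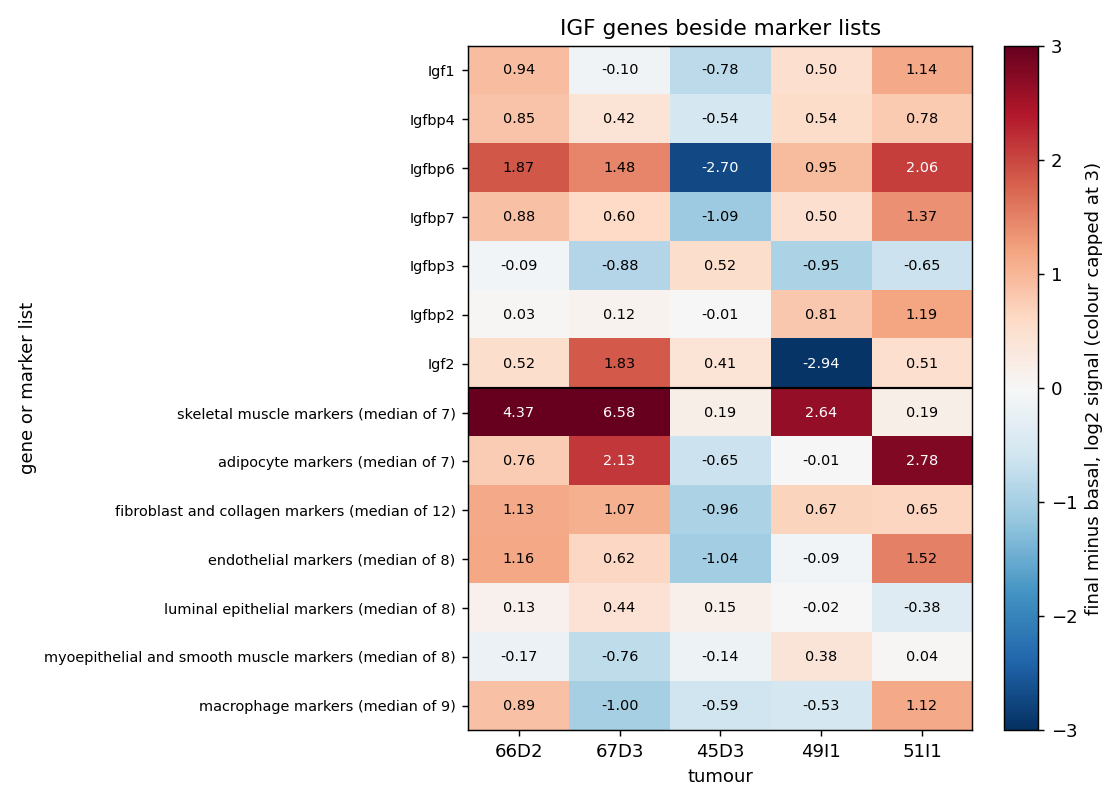
Final minus basal difference in log2 signal, by tumour (columns), for 7 family genes (above the line) and the median of each marker list (below it); red is higher and blue lower in the final array, and the colour is capped at 3. The 45D3 column is blue for Igf1, Igfbp4, Igfbp6, Igfbp7 and the fibroblast, endothelial, adipocyte and macrophage lists and red for Igfbp3, and luminal markers stay within -0.38 and 0.44.

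Among the ligands, Igf1 had basal log2 signals of 8.39, 8.96, 9.39, 8.57 and 9.64 on its brightest probe set. Its final signals were 9.33, 8.86, 8.61, 9.07 and 10.78. The highest array in either group was 51I1. The log2 difference was 0.34 (SE 0.28; limma adjusted p = 0.775), with 3 tumours higher and 67D3 and 45D3 lower; it was 0.62 (SE 0.22; limma adjusted p = 0.231) without 45D3 0.14 without 51I1 and 0.19 without 66D2. The other Igf1 probe sets gave 0.46 (SE 0.39) and 0.65 (SE 0.38), both with 67D3 higher, and 0.87 and 1.06 without 45D3. Genes most like Igf1 over the 10 arrays were Tmem268 (Pearson correlation 0.95), Slfn2 (0.94) and RGD1309362 (0.94).

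Igf2, the ligand known for imprinting and fetal growth, was dim. On the 1 of 4 probe sets past the cutoff, its basal signals were 6.06, 5.04, 5.70, 9.24 and 5.32, and its final signals 6.58, 6.87, 6.11, 6.30 and 5.83. Except for the basal array of 49I1, every value lay under the mean of the BioB spike-in, 7.97, with which the study set its sensitivity. This limit was not particular to Igf2. Of the pathway genes named below, all arrays of Grb10, Pik3r1, Socs3 and Vtn lay under that mean, and all of Ghr but the final array of 51I1. Some arrays of H19, Htra3, Stc1, Stc2, Adam9, Rps6kb1, Foxo1, Irs2, Stat5b, Crim1 and Igf2bp2 did too. Among the other members, so did some arrays of Igf1r and of the dimmer Igf1 and Igfbp5 probe sets. For Igfbp6 (7.01) and Igfbp4 (7.83) on their brightest probe sets, the basal array of 66D2 lay under it. The mean log2 difference was 0.07 (SE 0.62; limma adjusted p = 0.982); it was -2.94 in 49I1 and between 0.41 and 1.83 in the other 4, 0.82 without 49I1 and -0.02 without 45D3. The other 3 Igf2 probe sets had 4.44, 3.97 and 3.87 in the basal array of 49I1, and their values over all arrays lay between 3.64 and 4.72, so the high signal was seen on 1 probe set of the gene.

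H19, the noncoding RNA next to Igf2 that is expressed from the opposite parental allele, was fixed for comparison. In the RefSeq gene table only Mir675, the microRNA within H19, starts between them. H19 had basal signals of 6.83, 5.79, 5.59, 9.18 and 5.43, so that 49I1 was the highest basal array for H19 as it was for Igf2. Its final signals were 9.61, 9.96, 5.62, 9.19 and 6.79. In 49I1, H19 differed by 0.01 from basal to final, while Igf2 differed by -2.94. In 67D3, both were higher in the final array, H19 by 4.17 and Igf2 by 1.83. Over 5 tumours H19 differed by 1.67 (SE 0.63; limma adjusted p = 0.593) and was higher in 5 of 5, though by only 0.04 in 45D3 and 0.01 in 49I1. Without 45D3 the difference was 2.08.

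Of the receptors, Igf1r differed more between tumours than between the 2 times on its brightest probe set. Its basal signals were 7.34, 8.78, 8.50, 7.98 and 7.67, and its final signals 7.32, 9.14, 7.81, 8.27 and 7.63. Tumour 67D3 was the highest and 66D2 the lowest at both times. The SD of the 5 tumour means and that of the 5 differences were close on the other Igf1r probe set, 0.63 and 0.60. On the brightest they were 0.62 and 0.41. The log2 difference was -0.02 (SE 0.17; limma adjusted p = 0.980) on this probe set and 0.22 (SE 0.23; limma adjusted p = 0.814) on the other, so the direction was not settled; without 45D3 they were 0.15 and 0.45. Genes most like Igf1r were Rai1 (Pearson correlation 0.98), Kif13a (0.97) and Flywch1 (0.96).

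Igf2r had basal signals of 9.98, 10.24, 9.75, 10.52 and 10.10, and final signals of 10.19, 10.89, 10.06, 10.32 and 9.84. Its 10 values spanned little more than 1 log2 unit, from 9.75 to 10.89. It was higher in 66D2, 67D3 and 45D3 and lower in 49I1 and 51I1, with a log2 difference of 0.14 (SE 0.15; limma adjusted p = 0.824), which was 0.02 without 67D3, 0.10 without 45D3 and 0.24 without 51I1. Its second probe set gave 0.26 (SE 0.17), with the same 3 tumours higher, and 0.23 without 45D3. Genes most like it were Cela1 (Pearson correlation 0.94), Tuba8 (0.92) and Actr1b (0.92).

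Igfbp2 and Igfbp5 are neighbours, with no gene starting between them in the RefSeq table, and both differed widely between tumours. Igfbp2, a binding protein with an affinity for integrins, had basal signals of 12.30, 12.88, 12.81, 11.45 and 10.80, and final signals of 12.33, 12.99, 12.80, 12.26 and 12.00. The tumours with the lowest basal signals, 49I1 and 51I1, had the largest differences, 0.81 and 1.19, whereas the other 3 lay between -0.01 and 0.12. The SD was 0.90 in basal and 0.41 in final arrays (n = 5 each), and the log2 difference was 0.43 (SE 0.21; limma adjusted p = 0.651), or 0.24 without 51I1 and 0.54 without 45D3. Igfbp2 was the 1 binding protein whose value in 45D3 was close to 0. Genes most like it were Pcnp (Pearson correlation 0.94), Nexn (0.93) and Txndc16 (0.92).

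Igfbp5 had basal signals of 12.62, 11.42, 12.40, 10.72 and 10.47 on its brightest probe set. Its final signals were 12.76, 12.00, 11.30, 10.99 and 11.64. Tumour 66D2 was the highest at both times on all 5 Igfbp5 probe sets, and on 1 of them, where its signals were 10.60 and 10.63, the other 8 arrays lay between 7.37 and 8.95. The log2 difference on the brightest probe set was 0.21 (SE 0.30; limma adjusted p = 0.866); it was 0.54 without 45D3, 0.12 without 67D3 and -0.03 without 51I1.

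The 5 Igfbp5 probe sets disagreed in size. Their mean log2 differences ran from 0.21 to 0.67, and the 1 at an unadjusted p under 0.05 had a mean of 0.67 (SE 0.25; limma unadjusted p = 0.0335, adjusted p = 0.593), higher in 4 of 5 tumours, and 0.92 without 45D3. In 45D3 the 5 probe sets read -1.10, -0.78, -0.30, -0.59 and 0.41, so that 4 were lower and 1 higher in the final array. The last of these was also lower in 66D2 (-0.12) and 49I1 (-0.24), and the probe set before it was lower in 49I1 (-0.14). Genes most like the brightest Igfbp5 probe set were Slc34a2, a phosphate transporter of epithelia (Pearson correlation 0.98), Tmem47 (0.95) and Plscr2 (0.95).

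**Figure D4:**
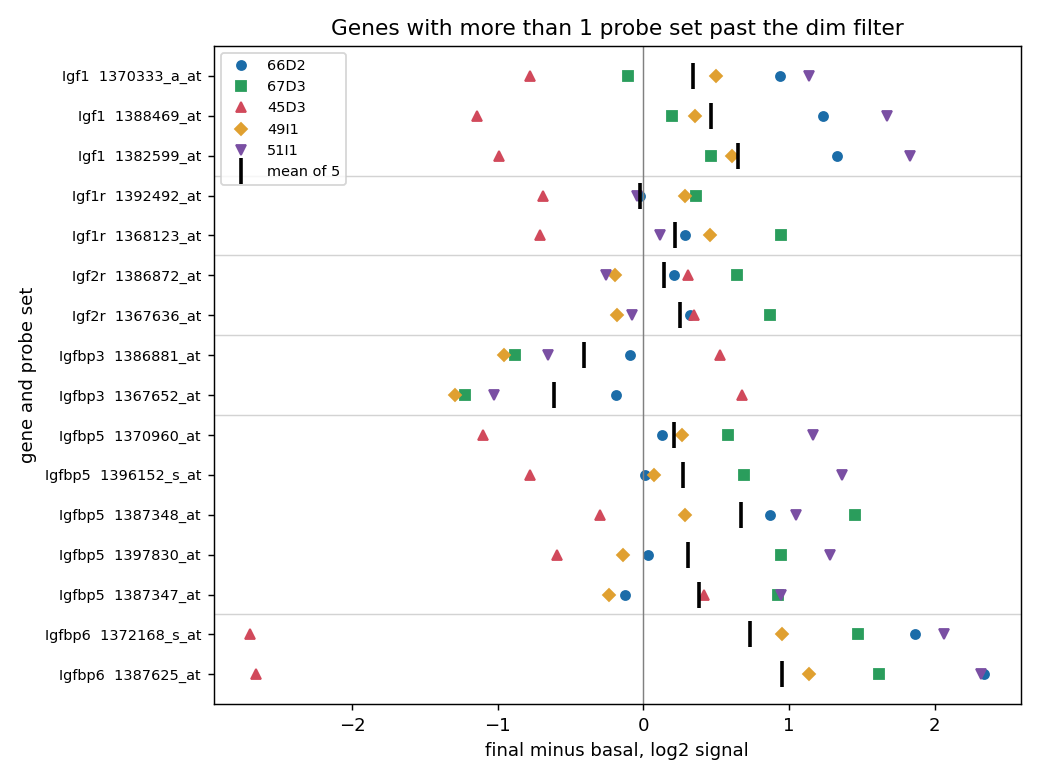
Final minus basal difference in log2 signal by tumour (symbols) and its mean over 5 tumours (black bar) for the 6 genes with more than 1 probe set past the dim cutoff. The probe sets of Igf1, Igf2r, Igfbp3 and Igfbp6 had means of the same sign, those of Igf1r were -0.02 and 0.22, and those of Igfbp5 spread from 0.21 to 0.67.

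The other genes of the pathway were read from 6 lists set by role, of which 41 of 57 genes were tested. None passed the adjusted threshold; the mean was higher in 28 and lower in 13, against 47.9% of all genes with a higher mean, with a median log2 difference of 0.08. An unadjusted p under 0.05 was found for 4 (3 higher and 1 lower), against 7.14% of all genes. Without 45D3 it was found for 8 of the 41, where 8.47% of all probe sets were higher and 9.7% lower at that level. In 5 of 5 tumours, 2 of the 41 genes (Foxo1 and H19) were higher, against 381 of the 10839 genes tested. Foxo1, the transcription factor that insulin and IGF signals keep out of the nucleus, had differences of 0.75, 0.66, 0.40, 0.20 and 0.23 (mean 0.45, SE 0.12; limma adjusted p = 0.550; 0.46 without 45D3). In the PI3K, AKT and mTOR arm, 10 of 15 genes had a higher and 5 a lower mean, with a median of 0.03; Akt2 differed by 0.20, Rps6kb1, which encodes a kinase of ribosomal protein S6, by -0.18 and Pik3r1 by 0.40, all with unadjusted p over 0.05.

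Among the insulin receptor family and docking proteins, 7 of 9 genes had a higher mean (median 0.11). Grb10, an adaptor that inhibits the insulin and IGF-I receptors, differed by 0.78 (SE 0.25; limma adjusted p = 0.579), and by 0.86 without 45D3: its basal signals were 6.63, 6.05, 7.23, 7.69 and 6.47 and its final signals 7.61, 7.34, 7.66, 7.46 and 7.87, so the final arrays lay closer together. Grb2 differed by 0.18, Irs2 by -0.22 and Shc1 by 0.10. Of the proteases that cut binding proteins and their inhibitors, 4 of 8 genes were tested, and Pappa and Pappa2 were not among them. Stc1, a stanniocalcin that inhibits PAPP-A, differed by -0.54 (SE 0.19; limma adjusted p = 0.592; -0.39 without 45D3), lower in 4 tumours and higher by 0.07 in 66D2, while Stc2 differed by -0.42, Adam9 by 0.38 and Ctsd by 0.01.

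In the growth hormone axis, which drives Igf1 transcription, 4 of 7 genes had a higher and 3 a lower mean, with a median of 0.00. The growth hormone receptor Ghr differed by 0.97, 1.403, -0.75, 0.29 and 1.99 (mean 0.78, SE 0.38; limma adjusted p = 0.652; 1.16 without 45D3), with the same 4 tumours higher as for Igfbp6. Stat5a differed by -0.49, Stat5b by -0.28 and Socs3 by 0.08. The list of other IGF-binding and ternary-complex proteins was wider than binding proteins alone, and all 4 of its tested genes had a higher mean. Htra3, a secreted protease with an IGFBP-like domain, was counted here and not among the proteases above. It differed by 1.21 (SE 0.53, limma adjusted p = 0.637), by -1.40 in 45D3 and by 1.86 without that tumour. Htra1 differed by 0.24, Crim1 by 0.12 and Vtn by 0.09. The median of these 4 was 0.18, and 0.38 without 45D3. Igfbp1, Igfals and Igfbpl1 were below the dim cutoff. Igf2bp2, an IGF2 mRNA-binding protein, differed by -0.14.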

How the data were processed

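RNA of 10 tumour samples was measured on Affymetrix Rat Genome 230 2.0 arrays, 1 array each. RMA (Robust Multichip Average) is named in the submitters' processing notes, and in the design text, as the normalisation that the authors used, with no version; the deposited values were read as log2 signals from their range, since the labels name no scale. RMA gives arrays a common distribution, so a change in total RNA per cell does not show. The table held 31099 probe sets, 57 of them controls; genes were named by the platform annotation of 2016, which gave 1 symbol to 20826, several to 436 and none to 9780. The number of arrays limits the precision; array medians over tested probe sets lay between 7.67 and 7.80.

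limma 3.58.1 (R 4.3.3; statmod 1.5.0 for the random block) was fitted over the 18625 probe sets left after the dimmest 40%, with the tumour as a block, since both samples of a tumour carry its identifier in the labels; the residual degrees of freedom were 4 and the prior 2.64. The deviations of the 2 arrays of a tumour from their group means correlated by 0.72, 0.47, -0.16, 0.29 and 0.17 across probe sets (66D2, 67D3, 45D3, 49I1, 51I1). Calls needed p under 0.05 after Benjamini-Hochberg adjustment over all probe sets. The study's test was Student's for paired samples, per the design text; it was run as an alternative ("the methods' t-test"). The brightest probe set stood for a gene, all others were also read. From each pathway list, up to 4 genes with the smallest p were named, and for each member the 3 genes with the highest correlation over the 10 arrays. The members, lists and alternatives were chosen with earlier results of these data known. Whether replicate tumours came from separate animals is not stated, so p-values measure the spread between these tumours. Promoter windows were those of RefSeq for build GRCr8, and no array position was compared with them.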

Additional observations from a re-analysis of the deposited data

Results flagged for a closer look

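Over the 10 genes, the basal arrays, the final arrays and the differences, 30 groups of 5 values in all, were checked for a value far from the others, where chance flags about 1 group in 20. The Igf2 signal in the basal array of 49I1 was 9.24 on the log2 scale, and the nearest other basal value was 6.06. The Igfbp6 difference in 45D3 was -2.70, and the nearest other was 0.95.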

How the results depend on the processing

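Over the alternative settings run, 138 of 149 values of the 10 genes kept their direction and their side of the threshold, 11 changed direction and 0 crossed the threshold; 0 probe sets passed the adjusted threshold under any of them. Without the replicate block the differences were by construction the same as in the paired fit (Igfbp6 0.73), and 1001 probe sets had an unadjusted p under 0.05. The random block, the changed dim filters and the methods' t-test also keep the differences by construction. In all these settings no direction could turn and only the side of the threshold was open. The number of values that kept their direction therefore overstates how stable the directions were. The direction of Igf1r turned to 0.071 with array weights, 0.10 as the mean over its probe sets and 0.076 without 67D3 and 45D3, the tumours whose basal arrays had the largest hexokinase gap, where Igf2r was -0.080 and Igf2 -0.64; the cause was not tested. Array weights also gave Igfbp6 1.36, Igf1 0.57, Igfbp5 0.36 and Igfbp7 0.72. Leaving out 1 tumour in turn gave Igf2 from -0.38 to 0.82, Igf1r from -0.11 to 0.15, Igfbp5 from -0.030 to 0.54, Igfbp6 from 0.40 to 1.59, Igfbp7 from 0.22 to 0.84, Igf1 from 0.14 to 0.62 and Igfbp2 from 0.24 to 0.54, and the medians of the growth hormone axis from -0.12 to 0.078 and of the PI3K arm from -0.017 to 0.14. Probe sets at an unadjusted p under 0.05 numbered 2276 with no dim filter (more probe sets tested), 3254 with array weights, 3131 without 67D3 and 45D3, and from 795 (without 67D3) to 3383 (without 45D3) with 1 tumour left out. Those lower in every tumour numbered 1506 with no dim filter, 4421 without 67D3 and 45D3 and from 1132 to 3026 with 1 tumour left out, and those higher in every tumour 3346 and from 995 to 2218 (fewer tumours have to match). The Igf2 probe set did not pass the stricter filter on the dimmest 60%. Without 45D3, the 5 pairs became 4, which limits the precision of the values given without it.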
